A study of Mus musculus with 4 samples.

Results

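The Smaug repressors and the CCR4-NOT deadenylase, which Smaug proteins recruit to messenger RNA, were followed through 10 genes: the repressor genes Samd4 (Smaug1) and Samd4b (Smaug2), and the complex genes Cnot1, Cnot2, Cnot3, Cnot4, Cnot6, Cnot6l, Cnot7 and Cnot8. They were found by matching the transcript accession of each array probe to a gene symbol, which gave 14 probes for 10 of the 20832 genes named on the array. All 10 genes had a probe that passed the filter on dim spots, and 12 of the 14 probes did. Samd4 was chosen by its log2 ratio in this same comparison, which was far below 0, so its values are a description and carry no test. The other 9 genes were listed for what their products do, with earlier results of these data already known. The question was whether the lower Samd4 signal was accompanied by any difference in its paralogue or in the complex.

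Smaug proteins bind hairpins in messenger RNAs through a SAM domain and repress their translation, in part by bringing in CCR4-NOT, which shortens the poly(A) tail. In the complex, Cnot1 is the scaffold, Cnot2 and Cnot3 form the NOT module, Cnot7 and Cnot8 are CAF1-type nucleases, and Cnot6 and Cnot6l are CCR4-type nucleases. Cnot4 is a ubiquitin ligase. In neurons Smaug1 forms cytoplasmic granules near synapses, and Smaug2 acts in neural precursor cells.

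Total RNA was taken from the cerebral cortex of males aged 3 months, either Ndrg2-/- or wild type, both on a C57BL/6N background. In brain, Ndrg2, a gene named for its N-myc downstream regulated family, is chiefly an astrocyte gene. Each of 4 Agilent 2-colour arrays set 1 sample labelled Ndrg2-/- (red dye, Cy5) against 1 sample labelled wild type (green dye, Cy3), and the dyes were never exchanged, so a dye effect of a probe and a genotype effect cannot be told apart. The labels do not say how the allele was made, which part of Ndrg2 it removes, or whether RNA of several mice was pooled, and no label says that the samples were separate animals, so a p-value here reflects sample-to-sample spread that may be technical. Every ratio below is the log2 of the sample labelled knockout over the sample labelled wild type on the same array, given as mean ± SD over n = 4 arrays.

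The DNA just upstream of the Smaug gene starts is shown first, because Samd4 is transcribed from more than 1 start while the array held a single Samd4 probe (transcript NM_001037221). The arrays did not measure these windows. Each is the 250 bases before a RefSeq start (assembly GRCm38.p6), written 5' to 3' on the gene's strand, with each CG dinucleotide in capitals (the motif CG reads the same on both strands). The first Samd4 window is chr14:46882715-46882964 and the second is chr14:47068727-47068976, both on the plus strand, and that of Samd4b is chr7:28436192-28436441 on the minus strand.
Samd4 first start: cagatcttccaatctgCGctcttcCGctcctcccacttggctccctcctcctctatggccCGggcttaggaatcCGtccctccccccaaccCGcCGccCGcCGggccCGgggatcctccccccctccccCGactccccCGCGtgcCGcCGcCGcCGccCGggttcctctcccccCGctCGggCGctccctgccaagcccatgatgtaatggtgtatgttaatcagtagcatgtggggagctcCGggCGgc
Samd4 second start: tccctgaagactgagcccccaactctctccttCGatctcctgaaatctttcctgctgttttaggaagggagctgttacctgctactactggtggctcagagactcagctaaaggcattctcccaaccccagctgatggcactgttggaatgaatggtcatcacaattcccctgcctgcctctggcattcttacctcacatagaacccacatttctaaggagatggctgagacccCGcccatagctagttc
Samd4b start: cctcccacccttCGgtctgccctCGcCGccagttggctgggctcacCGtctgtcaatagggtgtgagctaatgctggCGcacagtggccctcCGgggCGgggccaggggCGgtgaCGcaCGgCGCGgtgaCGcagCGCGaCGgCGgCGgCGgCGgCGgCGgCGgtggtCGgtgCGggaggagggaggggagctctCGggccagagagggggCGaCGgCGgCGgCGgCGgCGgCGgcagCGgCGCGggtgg
The first Samd4 window held 22 CG and the second held 2, so the windows of this gene differ in CG content. Which start gives the probed transcript was not examined. The Samd4b window held 37. Of 32851 such windows in the table, 14.8% had at least 22 CG, 81.2% at least 2 and 2.2% at least 37, and their median was 6. In all, 8 of the 10 genes had a window (15 windows), with 2 to 37 CG. Cnot1 and Cnot7 had none in the table.

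A few facts of the whole series bear on these values. The median spot signal lay between 94 and 122 in green and between 283 and 335.5 in red. The local background was 22 to 26 in green and 87 to 96 in red. Having only 4 arrays limits the precision. The targeted gene was not lower in the samples labelled knockout: its only tested probe (NM_013864) gave log2 ratios of 0.11, 0.37, 0.40 and 0.38, with a mean of 0.32 ± 0.14 (adjusted p 0.0173 in limma). That call was lost without replicate 2 (adjusted p 0.0795), without replicate 3 (0.0651), with the processed signals or the authors' deposited log2 table (0.26, adjusted p 0.0663) and without the pairing by array (0.0600), while the ratio stayed above 0 in all 12 alternatives. A probe outside the deleted part would check nothing, so the direction of each ratio rests on the labels. All 7 markers of cortical excitatory neurons were measured above background. Of the other cell types, the meningeal fibroblast markers stood apart, with 5 of 5 genes passing the test as higher in the samples labelled knockout, array medians of 0.68, 0.43, 0.25 and 0.67, and summed signals of 3877 to 7309 in the samples labelled wild type against 6104 to 8597 in those labelled knockout.

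Samd4 signal was far lower in the samples labelled knockout on every array. In the samples labelled wild type the normalised signal was 590, 676, 588 and 462 on arrays 1 to 4, in arbitrary units. In the samples labelled knockout it was 85.0, 95.1, 79.5 and 75.9. The ranges were widely apart, and no array ran the other way. The log2 ratios were -2.79, -2.83, -2.89 and -2.61, with a mean of -2.78 ± 0.12, a 6.87-fold lower signal. No other of the 15759 genes tested had a ratio of that size, the next being Rnase4 at 2.29 (a secreted ribonuclease gene). In these bulk samples, fewer cells that express a gene and less RNA per cell cannot be told apart.

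The size of the Samd4 difference depended on how the low red signal was treated, and its direction did not. The raw red signal of the spot was 154, 150, 139 and 136 over local backgrounds of 99, 85, 91 and 94, against raw green signals of 374, 445, 369 and 286 over 28, 29, 24 and 22. The spot was still marked well above background in red on all 4 arrays, so some signal was left. With an offset of 10 in the background correction in place of 50 the mean was -3.47 (an 11.1-fold difference). With the processed signals of the scanner software, and in the authors' deposited log2 values, it was -4.38 (20.9-fold). The main value is therefore the smallest of these sizes. A single probe carried the gene, so no other probe could be set beside it, and its sequence was not analysed here.

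**Figure D1:**
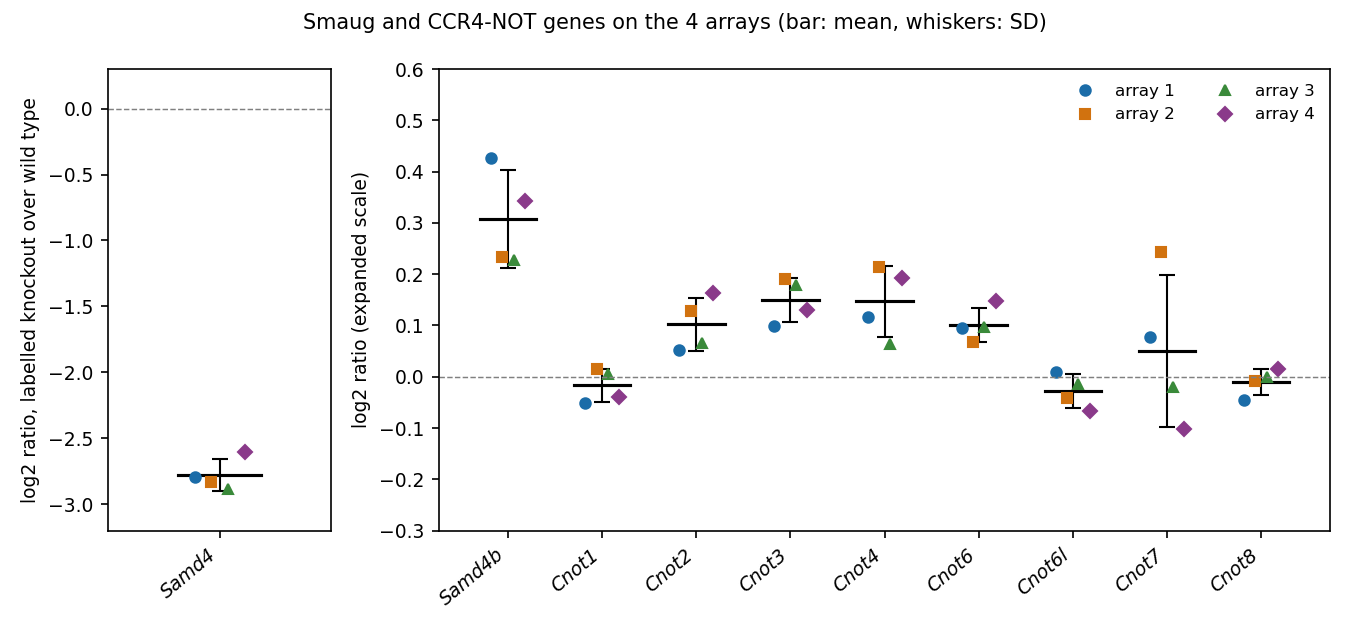
Log2 ratio of labelled knockout over labelled wild type on each of the 4 arrays for the brightest probe of each gene, with the mean (bar) and SD (whiskers), Samd4 on its own scale at left. Samd4 lies between -2.89 and -2.61, the 4 Samd4b points lie between 0.23 and 0.43, and the means of the 8 Cnot genes lie between -0.03 and 0.15.

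The paralogue Samd4b was higher in the samples labelled knockout. Its normalised signal was 5085, 5699, 4963 and 4325 in the samples labelled wild type and 6834, 6698, 5810 and 5484 in those labelled knockout. The highest sample labelled wild type exceeded the lowest labelled knockout, so the groups overlapped, but within each array the labelled knockout was the higher. The log2 ratios were 0.43, 0.23, 0.23 and 0.34. Their mean was 0.31 ± 0.10 (95% interval 0.20 to 0.42), a 1.24-fold difference, higher on 4 of 4 arrays. The adjusted p was 0.0111 in limma, and an exact two-sided sign-flip test gave p = 0.125, the smallest that 4 arrays allow.

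Samd4b passed the threshold in each of the 12 alternatives run, with means from 0.27 to 0.71 and adjusted p from 5.1e-06 to 0.0455 in limma. These were not 12 independent checks. The filters, the choice of probe and the pairing left its mean at 0.31, and the processed signals and the deposited table both gave 0.33. The value of 0.71 and the lowest adjusted p came from centring each array on its median without loess, which called 82.3% of all genes. That setting moved the median of all genes to 0.28, and relative to that median the Samd4b value was 0.43. The difference was small beside that of Samd4, and 3.83% of tested genes (603) had a larger log2 ratio in either direction. Samd4b was read by a single probe. Among the 4147 genes with at least 2 tested probes, the brightest probes of a gene differed by more than 0.31 in 4.56%, with a median difference of 0.09. Arrays 1 and 4 gave the higher Samd4b ratios and also the higher meningeal marker medians (0.68 and 0.67, against 0.43 and 0.25). Some other marker lists shared this order, while those of excitatory, general and inhibitory neurons, choroid plexus, striatum and blood did not. The excitatory neuron medians were 0.03, 0.15, 0.15 and 0.10 on arrays 1 to 4. The astrocyte marker medians were 0.29, 0.18, 0.18 and 0.24 on arrays 1 to 4, with 1 of 6 genes called, and those of microglia, oligodendrocytes and endothelium were also highest on arrays 1 and 4. The part of any of these cells in the Samd4b result was not tested.

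**Figure D2:**
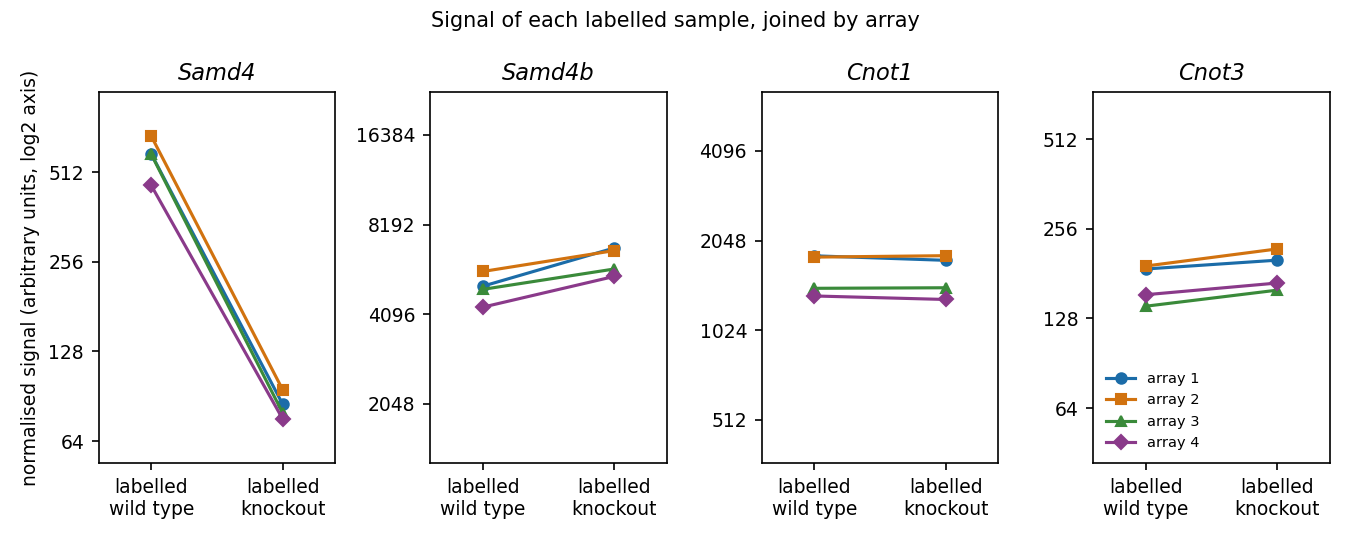
Normalised signal (arbitrary units, log2 axis of equal span in each panel) of the sample labelled wild type and the sample labelled knockout, joined by array, for Samd4, Samd4b, Cnot1 and Cnot3. Samd4 drops from 462 to 676 down to 75.9 to 95.1, the Samd4b and Cnot3 lines slope up slightly on each array (Cnot3 lay below the shifted median of all genes under median centring), and the Cnot1 lines are nearly level.

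Among all tested genes, 2357 (15.0%) were called in limma at adjusted p 0.05, of which 1437 (9.12%) were higher and 920 (5.84%) lower. Of the 9 members other than Samd4, 2 passed (22.2%), Samd4b and Cnot3, and both were higher. With 9 genes, this count is not far from the background of all genes. The share called also rose with brightness. It was 7.01% among the dimmest 3151 tested genes, which held Cnot3, and 21.1% among the brightest 3152, which held Samd4b. Leaving out array 1, 2, 3 or 4 gave 646, 452, 804 or 1544 called genes, and 1 member was called each time, because Samd4b passed and Cnot3 did not. A difference of more than 1.5 fold in the same direction on each of the 4 arrays was seen for 15 genes (0.0952%). Samd4 was among them, as its choice by this ratio made likely beforehand, and no other member was.

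The scaffold gene Cnot1, on which the rest of the complex assembles, did not pass. Its log2 ratios were -0.05, 0.02, 0.01 and -0.04, on both sides of 0. The mean was -0.02 ± 0.03 (adjusted p 0.796 in limma), and its 95% interval ran from -0.10 to 0.07.

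In the NOT module, Cnot3 passed and Cnot2 did not. Cnot3 had log2 ratios of 0.10, 0.19, 0.18 and 0.13, with a mean of 0.15 ± 0.04 (95% interval 0.06 to 0.24, adjusted p 0.0454 in limma), a 1.11-fold difference, higher on 4 of 4 arrays. The Cnot3 call was marginal, since it held in only 2 of the 12 alternatives. It was lost without replicates 1, 2, 3 or 4 in turn (adjusted p 0.0766 to 0.159 in limma). The call was also lost with the processed signals (0.18, adjusted p 0.0542) and without the pairing by array (adjusted p 0.382). Under median centring its value of 0.12 lay 0.16 below the shifted median of all genes. Cnot3 was also dim, with raw green signals of 100.5, 106, 74.5 and 80.0 over backgrounds of 23 to 27.

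The brightest Cnot2 probe gave 0.05, 0.13, 0.07 and 0.16, with a mean of 0.10 ± 0.05 (adjusted p 0.129 in limma). A further probe of the same transcript (NM_001037846) gave -0.06, -0.04, -0.08 and -0.04, all below 0, with a mean of -0.05 ± 0.02 (adjusted p 0.351). On each array these probes of Cnot2 differed in sign, by 0.16 ± 0.04 on average, which is as large as the Cnot3 difference (exact two-sided sign-flip p = 0.125, the smallest possible). The third Cnot2 probe (NM_001037848) did not pass the filter, being well above background in green on 2 arrays and in red on 1. It is not interpreted.

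Cnot4, which encodes a ubiquitin ligase that associates with the complex, had log2 ratios of 0.12, 0.21, 0.06 and 0.19. All were above 0, and the mean of 0.15 ± 0.07 missed the threshold (95% interval 0.05 to 0.25, adjusted p 0.0603 in limma). With the processed signals the mean was 0.09 (adjusted p 0.229 in limma), and array 3 was at -0.002. Cnot4 passed in 1 of the 12 alternatives, median centring. Its other probe (NM_001164413) was too dim to test.

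The nuclease subunits showed no call in either class. Of the CCR4-type genes, Cnot6 gave 0.09, 0.07, 0.10 and 0.15, with a mean of 0.10 ± 0.03 (adjusted p 0.115 in limma). Its paralogue Cnot6l gave 0.01, -0.04, -0.01 and -0.07, with a mean of -0.03 ± 0.03 (adjusted p 0.646). The second Cnot6l probe (NM_178854) was at -0.04 ± 0.06, so its 2 probes gave like values, differing by 0.02 ± 0.07. Both Cnot6l means were slightly below 0 and Cnot6 slightly above, and the difference between the paralogues was not tested.

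Of the CAF1-type genes, Cnot8 was the steadiest, with log2 ratios of -0.04, -0.01, 0.00 and 0.01 and a mean of -0.01 ± 0.03 (adjusted p 0.887 in limma). Cnot7 varied most of the 8 genes. Its ratios were 0.08, 0.24, -0.02 and -0.10, with array 2 the highest, and its mean of 0.05 ± 0.15 turned to -0.015 without replicate 2.

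Over the 8 Cnot genes the median log2 ratio was 0.08, against 0.01 over all genes tested. It was 0.06, 0.10, 0.04 and 0.07 on arrays 1 to 4, and 0.04 without replicate 2. The largest bound of any of the 8 intervals was 0.25, a 1.19-fold difference. It holds for the brightest probe of each gene under the main setting, and it does not cover a dye effect or other settings. Smaller changes are not excluded by a p above the threshold. With median centring, Cnot2, Cnot4 and Cnot6 stood at 0.48, 0.50 and 0.51, past that bound. Relative to the shifted median of all genes they were 0.20, 0.22 and 0.23 higher. Under median centring Cnot1, Cnot6l and Cnot8 took positive values (0.33, 0.36 and 0.38) and lay 0.05, 0.08 and 0.10 above the shifted median of all genes.

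**Figure D3:**
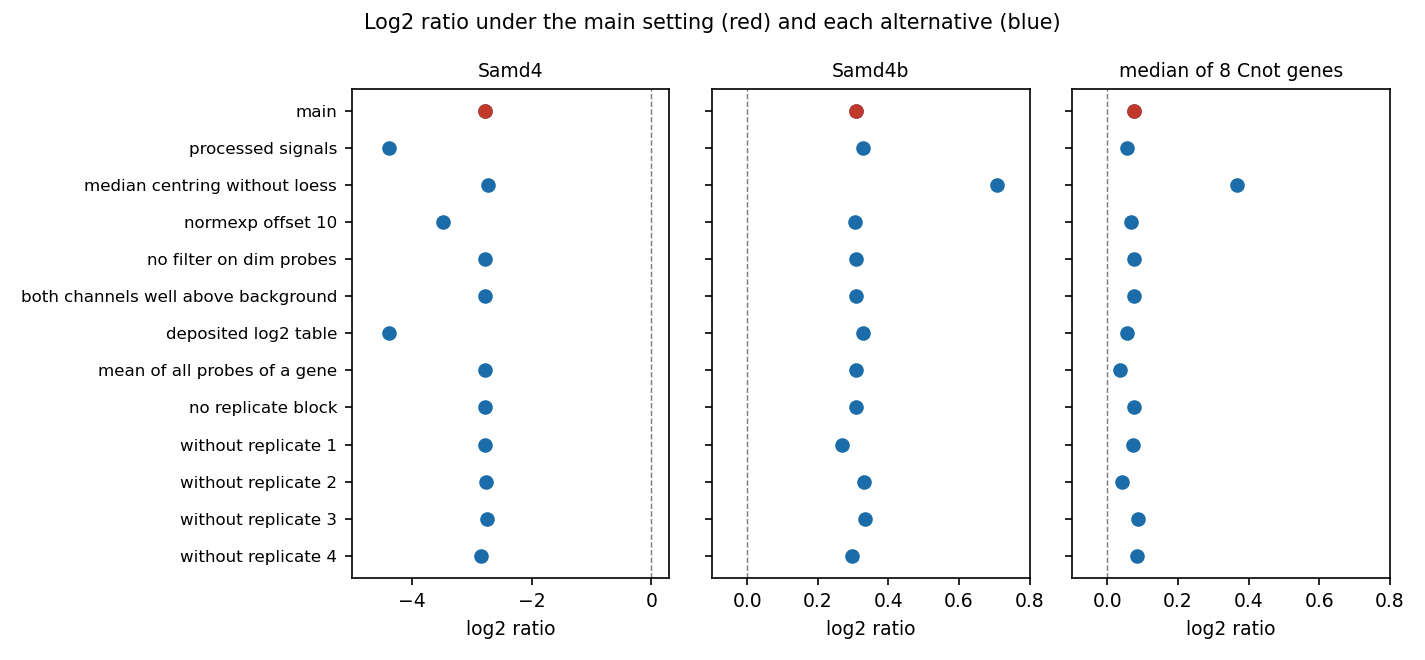
Log2 ratio of Samd4, of Samd4b and the median over the 8 Cnot genes, under the main setting (red, top row) and each of the 12 alternatives (blue). Samd4 ranges from -4.38 to -2.73, and Samd4b stays above 0 throughout, from 0.27 to 0.71. The Cnot median lies between 0.04 and 0.09 except for 0.37 under median centring. That setting, which also gave the 0.71 of Samd4b, moved the median of all genes to 0.28.

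Genes of the same pathway were then counted in 6 lists. Of 91 genes tested, 16 passed (17.6%, against 15.0% of all genes), 11 of them higher and 5 lower. By list, 0% to 21.7% passed, and with 5 to 23 genes each no list can be set apart from all genes. Below, rose and fell mean called as higher or lower in the samples labelled knockout, as were 9.12% and 5.84% of all genes. The count fell to 4 without replicate 1, 3 without replicate 2 and 8 without replicate 3, and to 6 without the pairing by array. Only Lsm14a, Bicc1 and Pum2 passed with each array left out in turn. Of these, Bicc1 missed the threshold without the pairing by array (adjusted p 0.126 in limma).

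The remaining subunits and the BTG/TOB adaptors, small proteins that tether CCR4-NOT to poly(A)-binding protein, had 8 genes tested, with a median of 0.05. Only Btg1 rose, at 0.29 ± 0.11 (adjusted p 0.0154 in limma), while its other probe was at 0.11. The subunit genes Cnot9 (0.06), Cnot10 (0.13, adjusted p 0.0763) and Cnot11 (-0.01) did not pass. Together with the members, 1 of the 11 Cnot genes passed, against 15.0% of all genes.

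Of 19 genes for other deadenylases, poly(A) polymerases and poly(A)-binding proteins, 2 rose and 2 fell, with a list median of 0.02. Pan3, a subunit of the PAN deadenylase that acts before CCR4-NOT, was at 0.31 ± 0.13, and Tent4b, a nucleotidyltransferase that extends tails, at 0.16 ± 0.07. Angel1 was at -0.23 ± 0.09 and the nuclear poly(A)-binding protein gene Pabpn1 at -0.21 ± 0.07. Under median centring Angel1 stood at 0.06, below the shifted median of all genes (0.28), and Pabpn1 at 0.28, level with it.

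In decapping, 5' decay and cap-binding repression, 3 of 23 genes rose and 2 fell, with a median of -0.02. Lsm14a, which binds the helicase Ddx6 in P-bodies, was highest, at 0.39, 0.46, 0.36 and 0.39 on arrays 1 to 4, a mean of 0.40 ± 0.04 (adjusted p 0.00177 in limma). The arrays were close together for this gene. The cap-binding protein gene Eif4e was at 0.24 ± 0.02, with its other probe at -0.02, and the decapping activator gene Patl1 at 0.18 ± 0.04. Gigyf2, a partner of the repressive cap-binding protein, was at -0.19 ± 0.06 and Lsm4 at -0.15 ± 0.02, and under median centring they stood at 0.20 and 0.27, against a shifted median of 0.28.

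Of 23 other RNA-binding proteins known to recruit the complex, 22 were tested (Zfp36 was too dim), of which 3 rose, with a median of -0.02. Bicc1, which like Smaug carries a SAM domain, was at 0.35 ± 0.10 (adjusted p 0.00781 in limma). Pum2, a Pumilio protein of neurons, was at 0.35 ± 0.05 (adjusted p 0.00387), and another Pum2 probe stood at 0.16. Zfp36l2, which binds AU-rich elements, was at 0.27 ± 0.15. All 3 were higher on 4 of 4 arrays.

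None of 5 messenger RNAs reported as Smaug targets passed in limma, and none had an unadjusted p under 0.05. Over all genes tested, 15.0% passed and 5480 of 15759 had an unadjusted p under 0.05. With only 5 genes, the absence of calls says little about Smaug targets. The mitochondrial gene Uqcrc1 was at 0.10 ± 0.11, the feedback inhibitor gene of EGF signalling Errfi1 at 0.08 ± 0.16, the synaptic kinase gene Camk2a at 0.06 ± 0.12, the succinate dehydrogenase gene Sdhb at 0.01 ± 0.03 and the translational repressor gene Nanos1 at -0.06 ± 0.04. Smaug proteins act in part on translation, which these arrays did not measure.

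Of 15 granule genes, 2 rose and 1 fell, with a median of 0.03. Stau1 was at 0.23 ± 0.05 and Pura at 0.22 ± 0.06, while Stau2, the neuronal Staufen, was at -0.26 ± 0.15. The other Stau2 probe was at -0.04. Under median centring Stau2 stood at 0.13, below the shifted median of all genes.

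**Figure D4:**
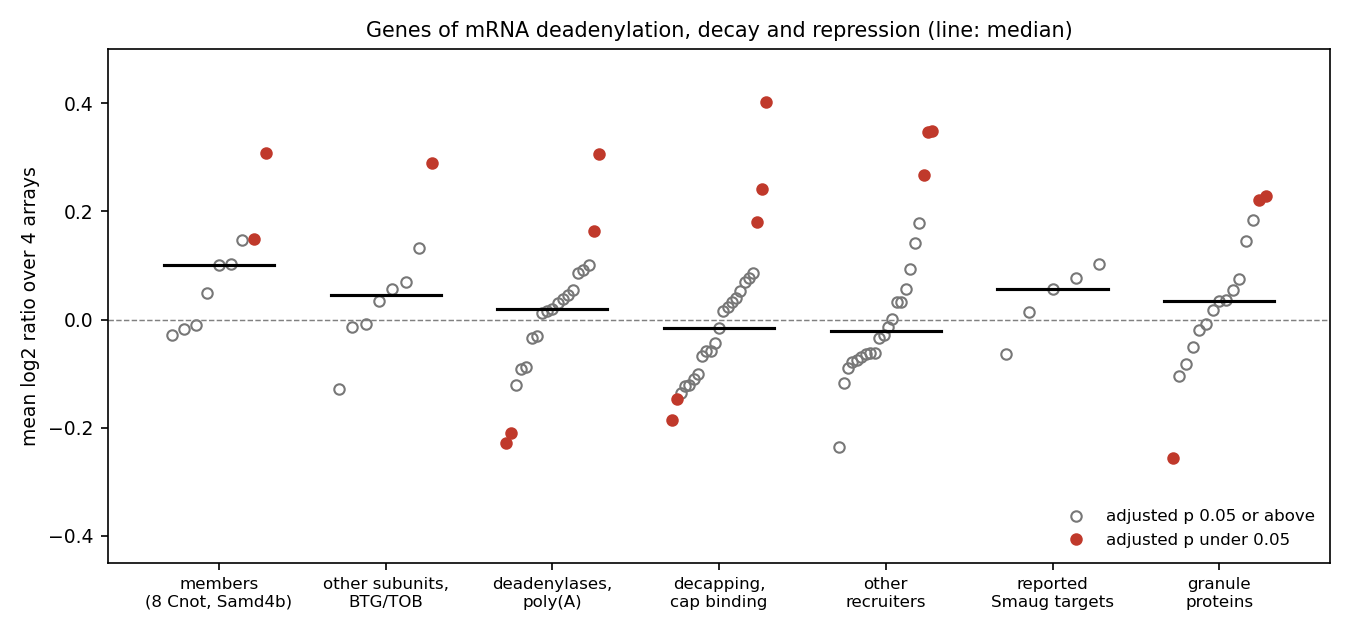
Mean log2 ratio over the 4 arrays for the 9 members other than Samd4 and for the tested genes of the 6 lists, sorted within each list, with the median as a line. Filled points passed adjusted p 0.05, 16 of 91 genes in the lists, and they lie on both sides of 0.

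Samd4 and Ndrg2 lie on chromosome 14, with Samd4 38 places before Ndrg2 in the order of tested genes there. The tested genes next to Samd4 did not share its ratio. On one side, the ubiquitin ligase gene Cgrrf1 was at 0.40 ± 0.06 (adjusted p 0.00250 in limma), the glia maturation factor gene Gmfb at -0.26 ± 0.09 (adjusted p 0.0167) and the cargo receptor gene Cnih1 at 0.04 ± 0.07. On the other, Gch1, the first enzyme of tetrahydrobiopterin synthesis, was at 0.19 ± 0.28 and did not pass, the replication factor gene Wdhd1 was at -0.21 ± 0.06 (adjusted p 0.0201), and the cytokine signalling gene Socs4 was at -0.10 ± 0.15. Thus 3 of these 6 neighbours passed, against 15.0% of all genes, and their calls went both ways. Without replicate 1, 2 or 3 the count was 2, 1 or 2, and only Cgrrf1 passed in all 12 alternatives. Gmfb turned to 0.18 under median centring, below the shifted median of all genes. The lowest of the 6 means in any alternative was -0.35, far from the -2.78 of Samd4.

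By the root mean square difference over the 4 log2 ratios, the tested genes most like Samd4 were Myh7 (1.49), Slc7a8 (1.67) and Dmtn (1.81). All 3 are on chromosome 14, as are 543 of the 15759 genes tested. Their means of -1.31, -1.12 and -0.97 show that none came close to Samd4. Because Samd4 had the largest ratio in size, this ranking favours genes with the next lowest ratios.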

How the data were processed

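Per the file headers, the authors extracted 4 two-colour Agilent arrays with Feature Extraction (11.0.1.1 in the headers, 10.7.3.1 in the submitters' processing notes). The deposited intensity used here is the median over a spot's pixels in each channel, with the local background beside it, and the deposited processed intensity is background-subtracted and dye-normalized. Per the file headers, a log10 ratio of red over green accompanies each spot. A log2 table, also deposited, holds, judged from its values, ratios of processed red over green (column medians 0.04, 0.03, -0.04 and -0.04).

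The raw intensity was processed in limma 3.58.1 (R 4.3.3) by normexp background correction with an offset of 50, then loess with the 1377 control spots at weight 0. Outlier spots (802 over all arrays) were left out, and replicate spots were averaged. Of 39429 probes, 27664 passed the filter, that is, 1 channel or both well above background on every array. Symbols came from transcript accessions in a RefSeq table of GRCm38.p6 (27427 probes). The array annotation is mm9, so gene positions served only for order. Each gene was represented by its brightest probe.

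An intercept-only limma model (lmFit and eBayes) was fitted over all kept probes with Benjamini-Hochberg adjustment, and a gene was called at adjusted p under 0.05. Each ratio pairs the samples of a replicate number, so the block is part of the design. The script was tested on simulated data. The members and lists were chosen with earlier results of these data known. The genes named are the members, Ndrg2, up to 6 called genes of each list by size (or the largest 2 where none was called; the other listed Smaug targets and Cnot9, Cnot10 and Cnot11 were added after their values were seen), the 3 neighbours of Samd4 on each side and the 3 genes most like it. Alternatives covered the processed signals, the deposited log2 table, median centring, the offset, the filter, the choice of probe, the pairing and each array left out.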

Additional observations from a re-analysis of the deposited data

Results flagged for a closer look

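Of 38 genes whose 4 array values were examined for a sample far from the others, 2 stood out. The Ndrg2 log2 ratio on array 1 was 0.11, while the other arrays lay between 0.37 and 0.40. Its gap to the nearest array was 0.897 of the whole range, against a critical value of 0.829. For Wdhd1, a neighbour of Samd4, the log2 ratio on array 3 was -0.127, while the other arrays lay between -0.25 and -0.23 (gap 0.878 of the range). Chance marks about 1 group in 20, so 2 such values among 38 genes is what chance gives. None of the 10 Smaug and CCR4-NOT genes had such an array.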

How the results depend on the processing

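Of 12 alternatives, Samd4b kept its direction and its call in all, and Samd4 its direction. The filters, the choice of probe and the pairing left the Samd4b mean unchanged. Samd4 stood at -4.38 with the processed signals, -4.38 in the authors' deposited log2 table and -3.47 with an offset of 10; without 1 array it ranged from -2.84 to -2.74. The count of genes called was 1329 with the processed signals, 1329 with the deposited log2 table, 1538 with an offset of 10 and 671 without the replicate block (the channels as separate samples), and 452 to 1544 without 1 array. Median centring called 12971 genes (10645 higher, 2326 lower, against 1437 and 920) and moved the median of all genes to 0.28. The count of Samd4b and Cnot genes called was 8 under median centring, where Cnot3 was not called. It was 1, with Samd4b the gene left, under the processed signals, the deposited table, the offset of 10 and no filter on dim probes. The count was also 1, again Samd4b, with no replicate block (Samd4b adjusted p 0.0333 in limma) and with each array left out (1 to 1). The Cnot median was 0.37 under median centring, 0.037 with the mean of all probes, and 0.042 to 0.088 without 1 array. The lists held 9 calls with the processed signals, 9 with the deposited table, 83 under median centring, 6 without the replicate block, and 3 to 11 without 1 array. Signs turned under median centring for Cnot1 (0.33), Cnot6l (0.36), Cnot8 (0.38), Angel1 (0.058), Pabpn1 (0.28), Gigyf2 (0.20), Lsm4 (0.27), Stau2 (0.13) and Gmfb (0.18), and without 1 array for Cnot8 (-0.018 to 0.0020, above 0 without replicate 1) and Cnot7 (-0.015 to 0.10, below 0 without replicate 2). The alternatives for the neighbours of Samd4 and the genes most like it were added after seeing the data. The causes were not tested. Signal over background limits Samd4 in red and Cnot3 in both channels.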
